A study of Homo sapiens with 2 samples.

Results

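Actinins, tropomyosins, filamin A and the light chain MYL6 are proteins of the actin cytoskeleton, and the transcripts of their genes were examined for alternative splicing in HEK293T cells. The genes were ACTN1, ACTN4, TPM1, TPM2, TPM3, TPM4, FLNA and MYL6, 8 of the 12254 genes with an event in the rMATS tables. They were chosen by name, and every row of the 5 tables with 1 of these symbols was kept, mutually exclusive exon events included. HEK293T is a line of human embryonic kidney cells. Polyadenylated RNA was sequenced from untreated control cells (1 library) and from cells given amiloride at 300 µg/mL for 6 h (1 library), and the series asked which exons are sensitive to splicing perturbations such as this drug. rMATS compared the libraries and gave 1 list of events for both. The columns with reads and inclusion levels carry library numbers and no condition, so the results here describe which exons, exon pairs and splice sites were listed. Whether reads of these cells support each listed event was not tested. The results do not describe how often each form was used, nor the direction or size of a change after amiloride. The sequencing depth of each library is therefore unknown here, and neither condition was replicated.

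The alpha-actinins are rod-shaped dimers that cross-link actin filaments, and ACTN1 and ACTN4 encode the forms of non-muscle cells. Tropomyosins are coiled coils that lie end to end along the actin filament and control the access of myosin and of filament-severing proteins. Among their 4 genes, TPM1, TPM2 and TPM3 are a textbook case of alternative splicing. Exons that stand side by side are used in place of each other there and give proteins of equal length with different internal stretches. Filamin A joins actin filaments into a network and anchors them to membrane proteins, and MYL6 encodes the essential light chain of non-muscle and smooth muscle myosin.

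Events in which an exon replaces a neighbour of exactly the same length were listed in TPM1, TPM2 and TPM3, and their sequences are printed because they carry the main result. In mutually exclusive exon events, 1 of the exons of a pair is joined between the flanking exons and the other is left out. The members had 24 distinct pairs, of which 4 (16.7%) had exons of equal length, and all 4 were in tropomyosin genes. Over all genes of the tables, 297 of 30127 distinct pairs (0.986%) had equal lengths. All positions are on GRCh37, counted from 1, and "upstream" and "downstream" follow the direction of transcription. Each pair is printed 5′ to 3′ with the bases that differ between its exons in capitals.

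In TPM1, on the plus strand of chromosome 15, the 126-base exons at chr15:63335905-63336030 and chr15:63336226-63336351 were listed as a pair. The downstream exon is exon 2 of the canonical transcript, the transcript that the annotation marks as the gene's representative. The pair is coding, an intron of 195 bases separates the exons, and 62 of 126 bases (49.2%) were identical.
TPM1 126 upstream: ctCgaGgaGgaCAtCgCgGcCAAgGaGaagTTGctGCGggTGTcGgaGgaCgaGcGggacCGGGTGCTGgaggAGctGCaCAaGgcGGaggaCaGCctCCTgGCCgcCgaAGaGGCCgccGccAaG
TPM1 126 downstream: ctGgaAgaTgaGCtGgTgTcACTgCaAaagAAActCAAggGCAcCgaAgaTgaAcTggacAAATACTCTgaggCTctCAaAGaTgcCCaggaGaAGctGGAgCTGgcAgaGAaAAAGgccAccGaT

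The other pair of TPM1 lay at chr15:63353397-63353472 and chr15:63353912-63353987, each 76 bases long, with 439 bases of intron between them. Here 43 of 76 bases (56.6%) were identical. The downstream exon is exon 6 of the canonical transcript.
TPM1 76 upstream: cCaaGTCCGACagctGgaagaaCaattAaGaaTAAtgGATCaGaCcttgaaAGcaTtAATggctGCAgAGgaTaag
TPM1 76 downstream: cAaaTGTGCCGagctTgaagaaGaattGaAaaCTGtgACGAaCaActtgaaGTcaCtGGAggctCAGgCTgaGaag

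TPM2, on the minus strand of chromosome 9, had the corresponding 76-base pair at chr9:35685061-35685136 and chr9:35684729-35684804. The exons were 256 bases apart, and 40 of 76 bases (52.6%) were identical.
TPM2 76 upstream: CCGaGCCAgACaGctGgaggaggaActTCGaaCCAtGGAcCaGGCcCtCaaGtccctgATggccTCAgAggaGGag
TPM2 76 downstream: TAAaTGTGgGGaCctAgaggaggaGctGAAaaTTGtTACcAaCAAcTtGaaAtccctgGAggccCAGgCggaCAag

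TPM3, on the minus strand of chromosome 1, had its 76-base pair at chr1:154144505-154144580 and chr1:154143889-154143964. The intron between them was 540 bases long, and again 40 of 76 bases (52.6%) were identical.
TPM3 76 upstream: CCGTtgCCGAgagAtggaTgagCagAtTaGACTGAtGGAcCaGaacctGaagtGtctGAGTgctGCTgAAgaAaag
TPM3 76 downstream: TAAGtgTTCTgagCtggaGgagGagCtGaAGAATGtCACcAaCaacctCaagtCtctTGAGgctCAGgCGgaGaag

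The downstream exon of each 76-base pair is exon 6 of its gene's canonical transcript. Each of the 4 pairs was listed in 1 event, and their introns were short. Only 5.58% of all listed pairs had exons closer together than the 126-base pair of TPM1, and for the TPM3 pair, the most widely spaced of the 4, the share was 14.1%. In GENCODE release 44, the TPM2 exons were never found in the same transcript, with 2 transcripts for the upstream exon and 4 for the downstream exon. The upstream and downstream exons of TPM3 stood in 9 and 8 transcripts, 1 of which held both. For TPM1 the 126-base exons stood in 4 and 11 transcripts with 1 in common, and the 76-base exons in 13 and 20 with 4 in common.

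The 76-base exons resembled the exon in the same place of another gene more than their own neighbour. Between genes, upstream exons were 64.5% to 68.4% identical and downstream exons 76.3% to 78.9%, whereas upstream and downstream exons shared 44.7% to 56.6% of bases, within a gene or between genes. The 3 comparisons among upstream exons and the 3 among downstream exons all lay above all 9 of the upstream-to-downstream comparisons. TPM4 had 1 exon of 76 bases in the tables, exon 5 of its canonical transcript at chr19:16199855-16199930, with no partner of equal length. This exon was 72.4% to 73.7% identical to the downstream exons of the other tropomyosins and 47.4% to 53.9% identical to their upstream exons. The same held for the 126-base exons of TPM1: TPM2 was listed with a single 126-base exon, which was 75.4% identical to the downstream exon of TPM1 and 54.0% identical to the upstream exon. These values count identical bases without gaps, and the exons of related genes are not independent of each other.

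**Figure D1:**
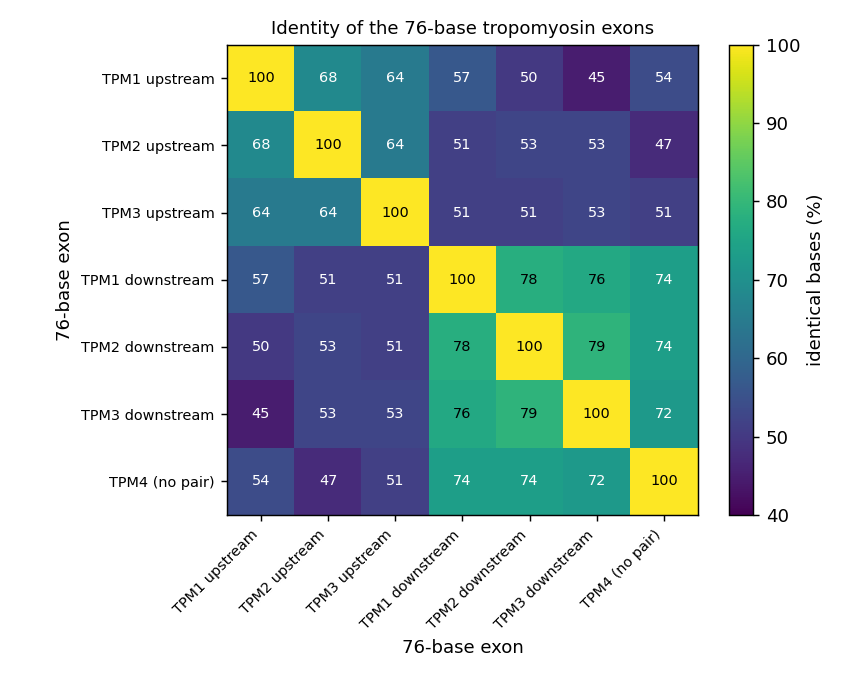
Percent of identical bases between the 76-base exons of TPM1, TPM2, TPM3 and TPM4, with genes and exon positions on both axes and the value printed in each cell. Upstream exons share 64.5% to 68.4% with each other, downstream exons 76.3% to 78.9%, and the unpaired TPM4 exon 72.4% to 73.7% with the downstream exons.

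The 3′ splice sites (3′SS) of the paired exons were further from the common pattern than those of most exons. Each site was scored by its match to the base frequencies of the annotated human 3′SS, over 20 bases of intron and 3 of exon, as a log2 ratio to equal base frequencies, so a higher score is a closer match. The 8 paired exons had a median 3′SS score of 2.85, against 9.21 for the 67154 distinct skipped exons of all genes, and all 8 scored below 6.96, the lower quartile of those exons. These skipped exons are meant by "all listed exons", and exons listed only in mutually exclusive pairs are not among them. The 76-base exons of TPM1, TPM2 and TPM3 are related in sequence, so the 8 are not independent in this or the measures below. The lowest was the downstream 76-base exon of TPM1, with a score of -2.15, below which lay 0.332% of all listed exons. The highest was the upstream exon of that pair, with a score of 6.77. For comparison, the unpaired 76-base exon of TPM4 had a score of 10.41, above the median of all exons. Exons outside the equal-length pairs scored from 0.18 (exon 9 of FLNA) to 14.56 (exon 5 of MYL6) in the 8 genes. Low scores were thus also found outside the pairs, as in the 70-base exon 8 of TPM1 with 3.35. The 3′SS are printed with the AG of the intron end in capitals, followed by 3 bases of exon.
TPM1 126 upstream: ccgcccgccgctgcccccAGctc
TPM1 126 downstream: accccctggccaactcccAGctg
TPM1 76 upstream: tttcctgtgtccactaacAGcca
TPM1 76 downstream: cctctgatcgaaaacattAGcaa
TPM2 76 upstream: cccctgcccgctgcccccAGccg
TPM2 76 downstream: ccgccacacaccccctgcAGtaa
TPM3 76 upstream: cccgtgactatcactaacAGccg
TPM3 76 downstream: ggtatttaaaatattcacAGtaa
TPM4 76 unpaired: aatcctttgtctttgtgcAGaaa

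The 18 intron bases before the AG held 9 pyrimidines in the downstream TPM3 exon and 10 in the downstream TPM1 exon of 76 bases, compared with a median of 14 over all listed exons. The upstream exon of TPM2 had 15 and was the only paired exon above that median.

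The distance from the AG of the 3′SS back to the next AG upstream was long in 7 of the 8 paired exons. This distance is of interest because the branch point, the base that attacks the 5′ splice site in the first step of splicing, usually lies downstream of that next AG. Its median was 30 bases over all listed exons, with quartiles of 21 and 43. In the paired exons the median was 94 bases. The downstream 126-base exon of TPM1 had 193 bases, longer than in 99.9% of all listed exons. That stretch reaches back to the last bases of the upstream exon, so the intron between the exons holds no AG other than its own end. The upstream exons had 78 and 102 bases in TPM1, 32 in TPM2 and 149 in TPM3. The downstream 76-base exons had 86 bases in TPM1, 129 in TPM2 and 86 in TPM3. The exception was the upstream exon of TPM2 with 32 bases, near the median, and the unpaired exon of TPM4 had 25. Where the branch points of these introns lie was not tested.

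**Figure D2:**
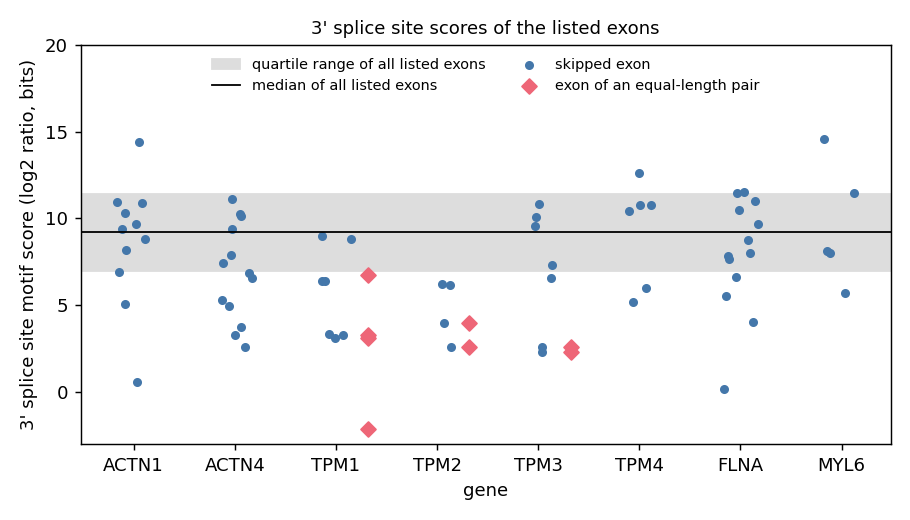
3′SS motif score (log2 ratio, in bits) of each distinct skipped exon of the 8 genes (circles, spread sideways for legibility) and of each exon of an equal-length pair (diamonds), by gene. Paired exons that also have a skipped-exon event appear as both. The line is the median of all listed exons, 9.21, the grey band the range between their quartiles, and all 8 diamonds lie under the band.

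The 5′ splice sites (5′SS) of the pairs split by position. The upstream exons of the 76-base pairs scored 5.12 in TPM1, 4.94 in TPM2 and 5.08 in TPM3, and the upstream 126-base exon scored 4.36, where the median of all listed exons was 8.07. The downstream exons scored 8.57 in TPM1, 8.85 in TPM3 and 8.39 for the 126-base exon, all above that median. TPM2 differed from the other genes, since its downstream exon scored 5.90. In every pair the downstream exon had the higher 5′SS score.

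The remaining 20 pairs were of another kind. Of all 24, 16 had both exons in the canonical transcript, and 14 of these were neighbours there, so that the annotated mRNA joins the exons that the event sets against each other. None of these 16 had equal lengths. Such pairs were exons 8 and 9 of ACTN1 (86 and 93 bases), exons 12 and 13 of ACTN4 (151 and 109 bases), exons 6 and 7 of TPM4 (63 and 70 bases, 85 bases apart), exons 35 and 36 of FLNA (129 and 174 bases) and exons 2 and 3 of MYL6 (28 and 144 bases). A mutually exclusive event in the tables is therefore not by itself an annotated swap of exons. Both exons of a pair stood together in at least 1 annotated transcript for 22 of the 24 pairs (91.7%), and for 93.7% of the pairs of all genes. Among the 20 pairs of unequal length the exon lengths differed by a multiple of 3 in 7 (35%), as in 35.1% of such pairs of all genes.

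The 8 genes had 128 events in all, or 93 when events that differ only in the flanking exons were counted once. The number of events for a gene was 17.5 at the median of the members and 8 over all genes. A list of 36 other actomyosin genes (actins, myosins, and actin-binding or actin-associated proteins, chosen for function) had 32 genes in the tables, with a median of 10. By type, 97 events were skipped exons (75.8%, against 71.1% of all 159490 events), 28 were mutually exclusive exons (21.9%, against 25.0%), 2 were alternative 3′SS, 1 was an alternative 5′SS and none was a retained intron (0 of 128, with a 95% Wilson upper limit of 2.91%). That limit covers counting error alone and takes the events as independent, although events of a gene can share exons. Retained introns were rare throughout, with 677 events in all genes (0.424%). All 8 members had a mutually exclusive exon event, as did 63.0% of all genes and 19 of the 32 other actomyosin genes. Within the members, such events made up 28.8% of the 66 tropomyosin events and 13.2% of the 38 actinin events.

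TPM3 had the most events with 28, more than 87.4% of all genes, followed by TPM1 with 22. ACTN1 had 21, FLNA 18, ACTN4 17 and TPM4 11. MYL6 and TPM2 had the fewest with 6 and 5. The high counts of TPM3 and TPM1 came in part from events that share an exon and differ in its flanks, since each had 14 when these were counted once. In TPM3, 14 of the 28 events had the same flanking exon, a terminal exon of 2418 bases that is outside the canonical transcript. Reads that also match a processed pseudogene may be lost or misplaced in these counts, and GENCODE names 9 pseudogenes after TPM3, 5 after MYL6, 3 after TPM4, 2 after ACTN4 and 1 after TPM2.

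ACTN1 and ACTN4 could be compared exon by exon, because exons 2 to 19 of their canonical transcripts have the same lengths. Over these 18 exons the genes were 74.1% to 90.5% identical. Of them, 11 were listed as skipped in ACTN1 and 13 in ACTN4, and 7 were listed in both, which is 63.6% of those of ACTN1 and 53.8% of those of ACTN4. With 11 and 13 of 18 exons listed, a large overlap arises without any relation between the genes. Whether 7 differs from such an overlap was not tested. Exon 6 was listed in neither gene. Counting skipped-exon events alone, the exons with the most were 9 (93 bases) and 4 (87 bases) in ACTN1, with 3 each. In ACTN4 exon 10 (231 bases), exon 12 (151 bases) and exon 13 (109 bases) had 2 skipped-exon events each. A length that is a multiple of 3 leaves the reading frame intact when that exon alone is skipped. It was seen in 14 of the 24 actinin exons (58.3%), compared with 38.8% over all genes. More than 1 canonical exon lay between the flanking exons in 10 of 17 skipped-exon events of ACTN1 and 10 of 16 of ACTN4. In these events the inclusion form also lacks the canonical exons other than the listed exon.

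A skip joins the exons on either side directly, and 4 of the 15 distinct joins of this kind in ACTN1 were annotated, whereas none of the 14 in ACTN4 was. The annotation held 47 transcripts of ACTN1 and 11 of ACTN4, and the part of this difference in the counts was not tested. ACTN4 also had the longest skip, from exon 7 to exon 20 past 12 exons of the canonical transcript, and exon 7 (chr19:39200035-39200116) was a flank in 9 of its 17 events. Since the reads behind these joins were not used, how well each is supported was not tested.

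Exon 19 was listed in both actinin genes. This exon is 81 bases long and lies in the stretch that encodes the EF hands, the calcium-binding fold near the end of the protein. In ACTN1 it lies at chr14:69345706-69345786 on the minus strand, and its 3′SS score of 0.59 was below that of all but 1.06% of the listed exons. In ACTN4 the score was 2.62, lower than in all but 3.19%. The ACTN1 exon was present in 17 of the 47 annotated transcripts of the gene. Its event was flanked by exons 18 and 21, so exon 20 is absent from both forms and exon 19 alone differs. The sequence of exon 19 is shown because both joins of the inclusion form and the skip were annotated.
ACTN1 exon 19: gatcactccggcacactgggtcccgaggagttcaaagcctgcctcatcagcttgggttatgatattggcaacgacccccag

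Outside the equal-length pairs, the tropomyosin exons with the most skipped-exon events were the 63-base and 70-base exons that follow them. In TPM1 the 70-base exon 8 had 5 skipped-exon events, and the 63-base exon 7 had 3. In TPM3 exon 7 had 6 skipped-exon events and exon 8 had 4, and in TPM4 the matching exons 6 and 7 had 2 each. In TPM2, no exon had more than 1 skipped-exon event, and no exon of 63 or 70 bases was listed as skipped. The 70-base exons of TPM3 and TPM4 were 90.0% identical, and each was 75.7% to 77.1% identical to that of TPM1. Only 7 of the 24 tropomyosin exons (29.2%) had a length that is a multiple of 3, compared with 38.8% over all genes. The 63-base exons were among those 7, so their skip keeps the frame, while a skip of the 70-base or the 76-base exon alone does not.

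Alternative splice sites were listed in TPM1 and TPM3. In TPM1, the 79-base exon 9 (chr15:63356263-63356341) had a second 5′SS 48 bases downstream, which extends it to chr15:63356389, and the sites scored alike, at 4.72 and 4.73.

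An event of TPM3 concerned the 3′SS of a terminal exon, which began at 154131524 or, 1327 bases further along the gene, at 154130197 on chromosome 1. The sites scored 7.71 and 8.53. The forms of this exon in the table, 3745 and 2418 bases long, were not annotated as exons with these ends.

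Filamin A had 15 skipped-exon events over 13 distinct exons of the 48 in its canonical transcript. Of the 13, 9 (69.2%) were a multiple of 3 in length, compared with 38.8% over all genes. Most skips were short, as 13 of the 15 passed a single canonical exon. Exons 10 (138 bases) and 9 (201 bases) had 2 skipped-exon events each, and exon 9 had the lowest 3′SS score of all skipped exons in the 8 genes, 0.18, with 0.882% of all listed exons below it. The shortest exon listed in the 8 genes was exon 30 of FLNA, 24 bases at chrX:153585619-153585642 on the minus strand. It is printed because its inclusion and its skip were both annotated, with the exon present in 5 of 21 transcripts of the gene.
FLNA exon 30: tgtcaatcggaggtcacgggctag

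The length of this exon keeps the frame, so that it adds 8 codons, and its 5′SS score of 9.58 was above that of 76.8% of all listed exons. Its 3′SS score was 8.01, higher than in 35.9% of them. Among the paired tropomyosin exons, in contrast, no 3′SS score was as high. Exons 40 (123 bases) and 36 (174 bases) were the other FLNA exons with both forms annotated.

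MYL6 had 5 skipped exons, of which 4 (80%) were a multiple of 3 in length, compared with 38.8% over all genes. The table listed exon 2 (28 bases) and exon 3 (144 bases) as skipped and also as a mutually exclusive pair. Exon 6, of 45 bases at chr12:56554410-56554454 on the plus strand, was present in 4 of the 21 annotated transcripts and both of its forms were annotated. It is the penultimate exon of the canonical transcript and holds the end of a coding sequence, so that its inclusion changes the last residues of the light chain. Its 3′SS score of 11.49 was above that of 75.8% of all listed exons, while its 5′SS score of 5.94 was above that of 20.1%.
MYL6 exon 6: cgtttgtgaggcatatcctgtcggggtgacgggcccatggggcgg

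Over the 8 genes, 66 distinct skipped exons had a median length of 115 bases (24 to 598), close to the 114 bases of all genes. All 66 lay between AG and GT, and 65 were annotated exons. The multiple-of-3 share was 51.5% (34 of 66, 95% Wilson interval 39.7% to 63.2% for counting error alone), and 38.8% over all genes. For coding exons alone it was 50.8%, against 39.5%. Whether the exons of these genes that were not listed have a different share was not tested. The median 5′SS score was 8.22 for the members and 8.07 for all genes, and the median 3′SS score was 7.85 against 9.21. By gene the 3′SS medians ran from 5.08 in TPM2 and 6.40 in TPM1 to 9.41 in ACTN1 and 10.59 in TPM4. The 2 actinin genes lay on either side of the median of their family, 8.03, with 6.88 in ACTN4.

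The events implied 185 distinct joins between exons, of which 114 (61.6%) were annotated, close to the 60.5% of all 191094 joins. The forms differed, in the members as in all genes: 104 of the 140 inclusion joins of skipped-exon events were annotated (74.3%, and 72.7% over all genes), but only 13 of the 79 skip joins (16.5%, and 19.1% over all genes). None was annotated among the 14 skip joins of ACTN4, the 7 of TPM4 and the 3 of TPM2, genes with 11, 35 and 10 annotated transcripts. TPM3 and FLNA had 3 each, of 12 and 14 joins, MYL6 had 2 of 5 and TPM1 had 1 of 9. In 51 of the 97 skipped-exon events more than 1 canonical exon lay between the flanking exons. The inclusion form of such an event holds the listed exon alone, so the other canonical exons are absent from both forms. These events are thus not skips of several exons against their joint inclusion. For 14 of the 66 exons (21.2%, and 23.0% over all genes) a single event had all 3 joins in the annotation. These were 4 exons of ACTN1, 2 forms of the same exon of TPM1, 3 exons of TPM3, 3 of FLNA and 2 of MYL6.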

How the data were processed

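RNA of HEK293T cells was sequenced by the study in 2 samples, control and amiloride, with 1 library each. The submitters' processing notes name STAR 2.5.1 and hg19 (GRCh37). The version of rMATS and the annotation given to it are not given in the sources used here. The authors deposited 5 rMATS tables (skipped exons, mutually exclusive exons, alternative 5′SS, alternative 3′SS, retained introns), each with exon positions and the effective length of both forms per event. The 30 columns of reads and inclusion levels number the libraries without naming a condition and were not used. A further 15 columns hold the study's own comparison (p-value, FDR and inclusion level difference) and were not used either. Thus no depth, inclusion level or drug effect is given, and no test was run.

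The effective lengths showed which reads had been counted. The inclusion form was longer than the skipping form (125 in every event) by the length of the exon in 97 of 97 events of the members. In 33 of these events the exon was longer than 125 bases, and only these show that reads on exon bodies counted for inclusion.

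Events were read by gene symbol. An event is a row of a table, and positions were converted to count from 1. Exons, joins and transcripts were compared with GENCODE release 44 on GRCh37, and 98.9% of the 67154 distinct skipped exons lay between AG and GT on that genome. Motif scores used the base frequencies of 300873 annotated 5′SS with GT (9 bases) and 300290 annotated 3′SS with AG (23 bases), with a pseudocount of 0.5, relative to a frequency of 0.25. The next AG was searched over 400 bases upstream of the exon, across exon borders too, and 11 exons with none there were set to 400. Identity was counted base by base without gaps. Python 3.11.15, pandas 2.3.3, numpy 2.4.6, pysam 0.24.0, scipy 1.17.1 and matplotlib 3.10.9 were used, and the scripts were tested on simulated events.

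The exons named are the 2 skipped exons with the most skipped-exon events of each gene (for ties, the lower position), every mutually exclusive pair of equal length, and every alternative splice site, except for 1 item that is not reported here. Exons with all joins annotated, the distance to the next AG, the pyrimidine count and other exons singled out were chosen after their values were seen. The genes and lists were chosen with earlier results of these data known.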

Additional observations from a re-analysis of the deposited data

How the results depend on the processing

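Of 30 alternative settings, 27 left the values for the 8 genes within their limits and 3 did not. When events that share the alternative exon or pair were counted once whatever their flanks, TPM1 fell from 22 to 14 events and TPM3 from 28 to 14. When pairs were restricted to those never in 1 annotated transcript, the share of equal-length pairs was 100%, but this is the single pair of TPM2, compared with 16.7% of 24 pairs. With pairs of annotated exons it was 17.4%. Choosing rows by position in place of the symbol gave 127 events. The multiple-of-3 share was 50.8% for coding exons and 62.5% for 1 exon per gene. The median 3′SS score ran from 7.85 to 8.15. Inclusion levels with a read minimum were not run, because the columns of reads name no condition. No paired analysis was possible because control and amiloride cells gave a single library each and no result comes from a test.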
